A study of Mus musculus with 6 samples.

Results

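The genes of Akt and of the class I PI3 kinases were followed in spleens of cyclophosphamide-treated mice with or without schisandrol A (SA). The 8 genes are Akt1, Akt2, Pik3ca, Pik3cb, Pik3cd, Pik3cg, Pik3r1 and Pik3r5, out of 20659 genes with a symbol on the array. They were chosen by name, and all of their 13 probes were taken. Each probe was assigned to a gene through the RefSeq transcript that the scanner file lists for it.

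The mRNA microarrays were 1-colour Agilent mouse arrays hybridized with spleen RNA of male ICR mice, an outbred strain, aged 8 weeks at purchase. Every mouse of both groups had received the alkylating drug cyclophosphamide (Cy) by intraperitoneal injection at 40 mg/kg for 5 days, so that no array here shows an untreated spleen. The MOD group (3 arrays, 1 to 3) was the Cy model, which was given water by gavage over 4 weeks. The SA-H group (3 arrays, 4 to 6) was given SA by gavage at 1000 mg/kg per day. Dose and duration are those of the sample records, and the study's paper gives another dose and a shorter course for its SA-H group. By the labels, day 5 applies to MOD and day 28 to SA-H, and where this holds, SA treatment and sampling time cannot be told apart. No source says whether a group's arrays came from different mice, so p-values reflect only the spread between samples, which may be technical. The labels name spleen as the tissue, although the extraction text also mentions liver. Of 12 T cell markers 11 were bright enough to be tested, as were 11 of 12 B cell markers, and 2 of 8 liver markers.

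Class I PI3 kinases are lipid kinases that make PIP3 at the plasma membrane when receptors are engaged. PIP3 recruits Akt, a serine/threonine kinase that is then activated and favours growth, survival and glucose uptake. In lymphocytes and myeloid cells of the spleen, PI3 kinase is switched on by antigen receptors, costimulatory receptors and chemokine receptors. Each enzyme pairs a catalytic subunit with a regulatory one. Pik3r1 encodes the main regulatory subunit of the alpha, beta and delta enzymes, and Pik3r5 encodes an adaptor of the gamma enzyme, which acts below G protein-coupled receptors.

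The signal of each spot is given as a level, the log2 of the processed signal relative to the 75th percentile of its array, so that 0 stands for that percentile. The percentile was between 599 and 840 in signal units on the MOD arrays and between 220 and 868 on the SA-H arrays, and SA-H array 4 was the dimmest. Spots well above background made up 43.1% to 73.9% of an array, and 0 spots were saturated. Levels of different probes are not compared, since each probe has its own brightness.

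Of the 7 genes that could be tested, none passed an adjusted p of 0.05 in either direction. Over all 14474 genes and unnamed targets the share was also 0% (limma; the smallest adjusted p was 0.0712, and 1816 lower and 1561 higher targets had an unadjusted p under 0.05). At an unadjusted p under 0.05, Akt1 and Pik3r1 were lower in the SA-H group, which is 2 of 7, against 12.5% of all tested targets. Pik3r5 was higher, which is 1 of 7, against 10.8%. The 3 SA-H arrays lay entirely below the 3 MOD arrays for 4 genes (Akt1, Pik3cb, Pik3cg and Pik3r1), against 20.7% of all tested targets. They lay entirely above for 1 gene, Pik3r5, against 11.9%. The median log2 fold change of the 7 genes was -0.51, beside -0.04 over all tested targets, and -0.25 without SA-H array 4. Only 4 of the 7 genes (Akt1, Akt2, Pik3cb and Pik3r5) had spots well above background throughout the 6 arrays. The other 3 passed the brightness filter through the MOD arrays alone, so that these counts and the median are a description.

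**Figure D1:**
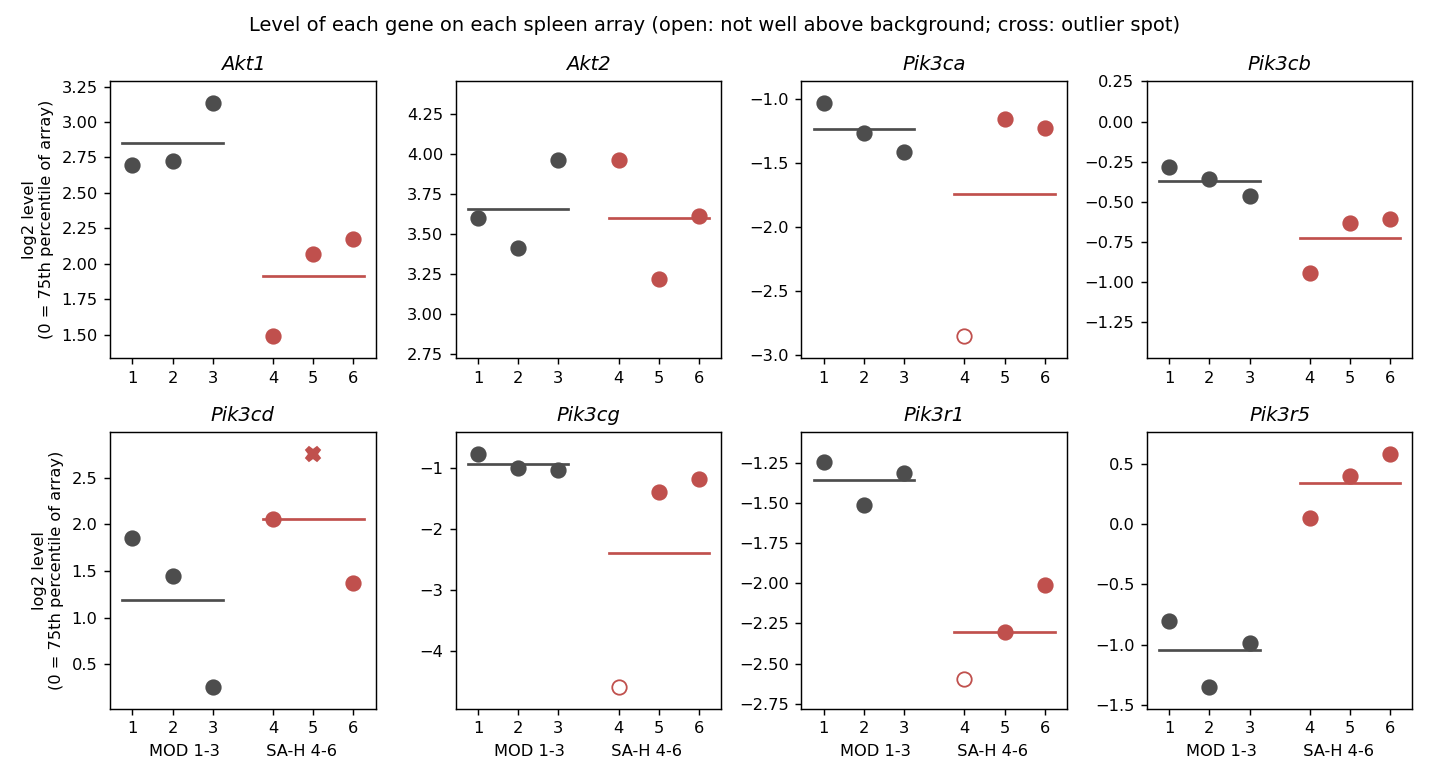
Level of each of the 8 genes on each array (log2 signal relative to the 75th percentile of the array; the vertical scale differs between panels), for MOD arrays 1 to 3 and SA-H arrays 4 to 6. Horizontal lines are group means, open circles are spots not well above background, and the cross is a spot flagged as an outlier. Akt1, Pik3cb, Pik3cg and Pik3r1 have all SA-H points below the MOD points, and Pik3r5 has them above.

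Akt1, Pik3r1 and Pik3r5 were each measured by a single probe with 1 spot per array, so that no second probe could be compared. Pik3r5, the gamma enzyme's adaptor, had the smallest p-value of the 7 genes. Its signal was 359, 330 and 303 across MOD arrays 1 to 3. Across SA-H arrays 4 to 6 it was 228, 1143 and 649, the lowest of these coming from the array that was dim throughout. The levels were -0.80, -1.35 and -0.99 in the MOD group and 0.05, 0.40 and 0.59 in the SA-H group. All 3 SA-H arrays were therefore above all 3 MOD arrays, and the gap between the groups was wider than the spread within either. The mean level was -1.05 ± 0.28 for MOD and 0.34 ± 0.27 for SA-H (SD, n = 3 each). The difference of 1.39 (standard error 0.27, 95% interval 0.77 to 2.02) is 2.62-fold, with a limma adjusted p of 0.0809. Leaving out each array in turn gave 1.24 to 1.54, with adjusted p between 0.0632 and 0.362.

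Pik3r1, the regulatory subunit of the alpha, beta and delta enzymes, lay on the other side. Its signal was 264, 295 and 241 for MOD and 36.4, 176 and 107 for SA-H. On SA-H array 4 the spot was not well above background, so 2 of the 3 SA-H arrays measured it. The levels were -1.24, -1.51 and -1.31 in the MOD group and -2.59, -2.31 and -2.01 in the SA-H group. All 3 SA-H arrays were below all 3 MOD arrays, also on the arrays with a clear spot. The means were -1.36 ± 0.14 and -2.30 ± 0.29 (SD, n = 3 each). The log2 fold change was -0.95 (standard error 0.25, 95% interval -1.53 to -0.36), and the limma adjusted p was 0.105. Without SA-H array 4 the difference was -0.80. With normexp background correction, which adds an offset of 50 to every spot, it was -0.49.

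Akt1, the most widely expressed Akt kinase, had levels of 2.70, 2.73 and 3.13 in MOD spleens and 1.49, 2.07 and 2.18 in SA-H spleens. These are bright spots, with signals of 4053, 5562 and 5262 in the MOD group and 617, 3636 and 1958 in the SA-H group. Every SA-H level was below every MOD level, and SA-H array 4 was the lowest. The mean was 2.85 ± 0.24 for MOD and 1.91 ± 0.37 for SA-H (SD, n = 3 each). The log2 fold change was -0.94 (standard error 0.28, 95% interval -1.60 to -0.28), which is 1.92-fold lower, with a limma adjusted p of 0.126. Without SA-H array 4 it was -0.73.

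Akt2, the Akt kinase best known for insulin-driven glucose uptake, differed from Akt1 in these arrays in that its groups overlapped. The levels of its brightest probe were 3.60, 3.41 and 3.96 in the MOD group and 3.96, 3.22 and 3.61 in the SA-H group. SA-H array 4, the lowest for Akt1, was here the highest of its group. The log2 fold change was -0.06 (standard error 0.29, 95% interval -0.74 to 0.62, limma adjusted p = 0.909). A second bright probe gave -0.15 (adjusted p = 0.798 in the fit over all 16900 kept probes). The remaining probe was dim, with signals between 37.2 and 281, and was not tested. The lower bound of the Akt2 interval, -0.74, is nearer to 0 than the Akt1 estimate of -0.94 and lies within the Akt1 interval, and the difference between both genes was not tested.

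Among the catalytic subunits, Pik3cb (the beta subunit, found in most tissues) had the narrowest spread. Its levels were -0.28, -0.36 and -0.47 in the MOD group and -0.94, -0.63 and -0.61 in the SA-H group. The groups did not overlap, but the gap between MOD array 3 and SA-H arrays 5 and 6 was small. The log2 fold change was -0.36 (standard error 0.23, 95% interval -0.89 to 0.17, limma adjusted p = 0.358).

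Pik3cg (the gamma subunit, prominent in leukocytes) and Pik3ca (the alpha subunit, ubiquitous) both rested on SA-H array 4. Pik3cg had levels of -0.76, -0.99 and -1.03 in the MOD group and -4.60, -1.39 and -1.17 in the SA-H group. The first SA-H value is a spot with a signal of 9.09 that was not well above background, and the other two lay just under the MOD range. The log2 fold change of -1.46 had a standard error of 0.85 (limma adjusted p = 0.326), and without SA-H array 4 it was -0.36. With scaling to the array median it had an adjusted p of 0.0161, which rests on the same spot, and 7.56% of all tested targets passed there. A second probe of Pik3cg was not well above background on most arrays and was not tested. Pik3ca had levels of -1.03, -1.26 and -1.41 in the MOD group and -2.85, -1.16 and -1.23 in the SA-H group. SA-H arrays 5 and 6 lay within the MOD range, and the spot on SA-H array 4 was not well above background. The log2 fold change was -0.51 (standard error 0.47, limma adjusted p = 0.520), and without SA-H array 4 it was 0.05. On that array the dimmest probe well above background had a level of -2.70, so that values near or below it are poorly measured.

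Pik3cd, the delta subunit, which dominates PI3 kinase signalling in lymphocytes, was not tested. Its brightest probe was well above background on all 6 arrays, but its spot on SA-H array 5 was flagged as an outlier by the scanner software. With that spot kept, a choice made after seeing the data, its levels were 1.85, 1.45 and 0.26 in the MOD group and 2.06, 2.76 and 1.37 in the SA-H group. The groups overlapped, since SA-H array 6 lay below MOD arrays 1 and 2, and the MOD arrays were widely spread. The means were 1.19 ± 0.83 and 2.06 ± 0.69 (SD, n = 3 each), and the difference of 0.87 had a limma adjusted p of 0.326. Both other probes of Pik3cd were dim, with differences of 0.26 and -0.23.

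**Figure D2:**
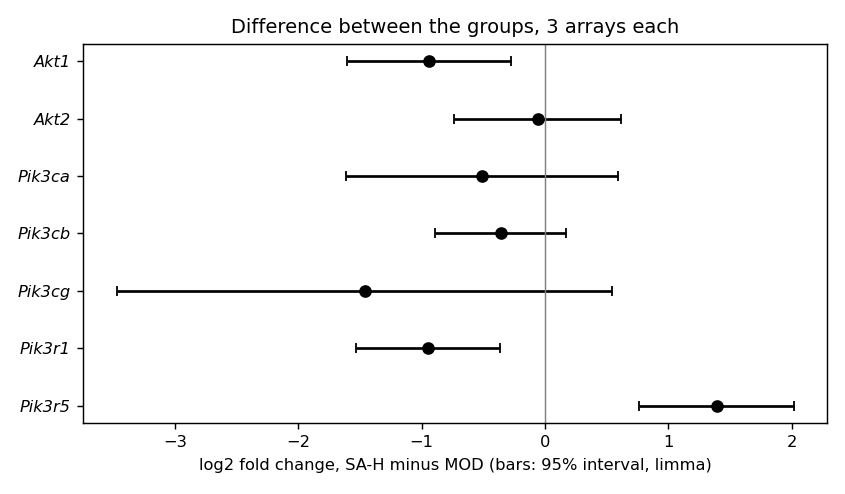
Log2 fold change of the SA-H group against the MOD group for the 7 tested genes, with 95% intervals from limma (3 arrays per group). The intervals of Akt1, Pik3r1 and Pik3r5 do not reach 0, before adjustment over all targets, and that of Pik3cg is the widest (-3.47 to 0.54).

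The promoters of the genes with the clearest or widest differences between the groups are shown as a description. Akt1 and Pik3r1 differed from Pik3r5 in direction between the groups. Within the SA-H group all of them were lowest on array 4, where the Pik3r1 spot was not well above background. The letters are the 250 bases before the first annotated start of each gene, 5′ to 3′ on the gene's strand, from RefSeq (GRCm38.p6, chr12:112674885-112675134 on the minus strand for Akt1, chr13:101768218-101768467 on the minus strand for Pik3r1, chr12:32208660-32208909 on the minus strand for Pik3cg, chr11:68431875-68432124 on the plus strand for Pik3r5). Capitals mark matches, on either strand, to GTAAACA (FoxO factors, which Akt inhibits) or GGGCGG (SP factors).
Akt1: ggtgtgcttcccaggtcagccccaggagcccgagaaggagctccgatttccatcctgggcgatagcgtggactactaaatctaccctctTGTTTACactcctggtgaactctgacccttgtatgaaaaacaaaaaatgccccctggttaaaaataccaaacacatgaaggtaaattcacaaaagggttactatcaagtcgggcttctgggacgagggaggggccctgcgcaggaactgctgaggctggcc
Pik3r1: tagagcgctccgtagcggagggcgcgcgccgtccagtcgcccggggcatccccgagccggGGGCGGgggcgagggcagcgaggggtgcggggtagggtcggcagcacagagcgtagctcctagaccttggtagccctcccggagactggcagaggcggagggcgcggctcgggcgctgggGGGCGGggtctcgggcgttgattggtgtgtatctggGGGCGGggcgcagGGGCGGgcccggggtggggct
Pik3cg: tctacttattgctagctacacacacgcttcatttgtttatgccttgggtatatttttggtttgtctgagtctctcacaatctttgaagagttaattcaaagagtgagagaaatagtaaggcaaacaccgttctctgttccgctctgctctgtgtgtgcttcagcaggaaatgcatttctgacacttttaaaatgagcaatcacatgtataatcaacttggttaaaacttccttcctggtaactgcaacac
Pik3r5: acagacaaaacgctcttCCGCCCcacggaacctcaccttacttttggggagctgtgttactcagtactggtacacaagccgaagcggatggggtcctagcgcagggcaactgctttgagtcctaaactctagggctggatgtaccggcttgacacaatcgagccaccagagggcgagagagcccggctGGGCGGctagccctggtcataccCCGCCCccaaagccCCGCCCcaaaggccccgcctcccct
The Pik3r1 window was 76.4% G and C with 30 CpG dinucleotides, and the Pik3cg window 38.8% with 3. The median over 32851 promoters was 52.4% and 6. Pik3r1 and Pik3r5 each held 4 matches to GGGCGG, and 32.7% of all promoters held at least 1 such match. The Akt1 window held 1 match to GTAAACA, which occurs in 3.17% of promoters. The window before a second annotated start of Akt1 was 78.4% G and C and held 4 matches to GGGCGG and 0 to GTAAACA. That before a second start of Pik3cg held 1 match to GTAAACA and 1 to GAGGAAGT (PU.1 factor). TTTCCCGC or TTTGGCGC (E2F, 1.30% of promoters) and TGACGTCA (CRE, 1.55%) had 0 matches in the 4 windows shown, as had GAGGAAGT (PU.1, 2.44%). A match is a description of letters and not a measured binding site.

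Scan days were not balanced: the first held SA-H array 6 with MOD arrays 1 and 3, the second held MOD array 2 with SA-H array 4, and SA-H array 5 was alone on its day. The comparison was therefore repeated within both days that held the 2 groups. Pik3r5 differed by 1.48 within the first day and by 1.40 within the second. Akt1 gave -0.74 and -1.24, and Pik3r1 gave -0.74 and -1.08. These 3 genes kept their direction in both days, which was fixed in advance, since their groups do not overlap. Only the size of the within-day differences is informative. Pik3cg gave -0.28 and -3.61, the latter being the comparison that holds SA-H array 4. Akt2 gave -0.17 and 0.55, with opposite signs. With the scan day as a block, Pik3r5 was the only 1 of the 7 genes past an adjusted p of 0.05 (log2 fold change 1.45, limma adjusted p = 0.0282), against 7.43% of all tested targets in that fit. In that fit SA-H array 5, alone on its day, does not enter the group difference.

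The authors' value table holds log2 values of the same samples with its processing unstated. Its columns could not be matched to the arrays: only 3 of 6 columns followed their own array's scanner values best, and the column of MOD array 3 correlated at -0.27 with its own array and at 0.31 with SA-H array 4 (across 13892 probes centred over the arrays). For MOD array 3 the best match thus lay in the other group. Whether the column labels or the unstated processing lie behind this was not tested. The direction and p-values in the table hold only as far as its column labels do. In it Pik3r5 differed by 0.67 (limma adjusted p = 0.0195) and Pik3r1 by -0.87 (adjusted p = 0.0332), which is 2 of 7 genes, against 12.3% of all tested targets in that table. Akt1 was at -0.46 (adjusted p = 0.0563), and the sign of Akt2 (0.24) and Pik3ca (0.35) was turned.

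**Figure D3:**
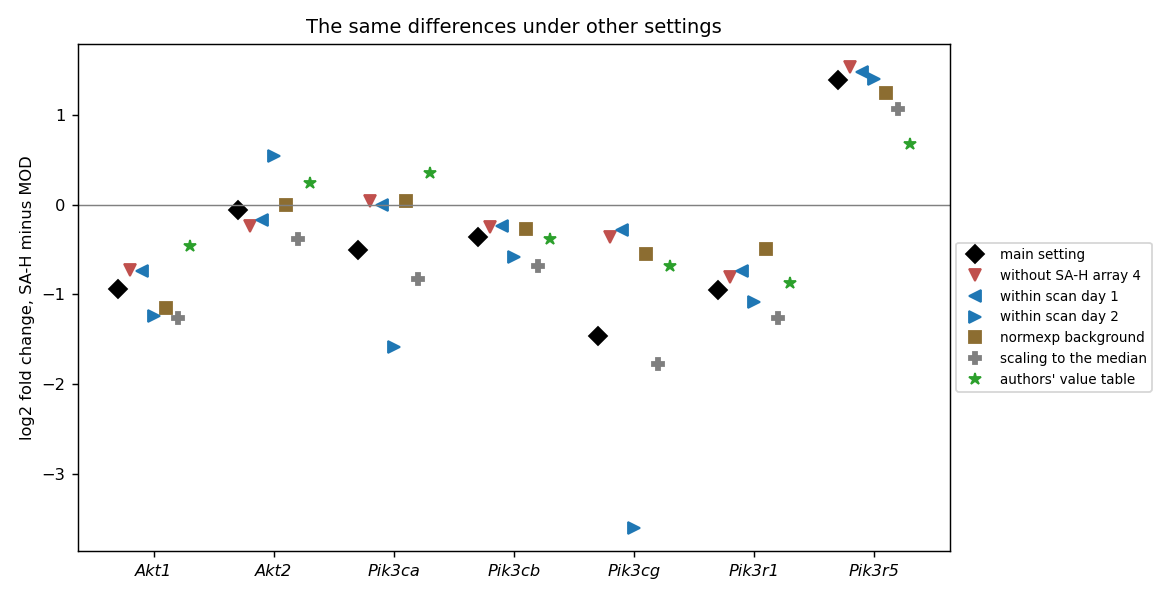
Log2 fold change of each tested gene (SA-H minus MOD) in the main setting, without SA-H array 4, within each scan day that holds both groups, with normexp background correction, with scaling to the array median and in the authors' value table. Pik3r5 is above 0 and Akt1, Pik3cb, Pik3cg and Pik3r1 are below 0 in all of the settings drawn, while Akt2 and Pik3ca change sign. For the genes that keep their sign, leaving out an array or comparing within days could not turn it, since their groups do not overlap.

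Genes whose levels over the 6 arrays were most like those of the 3 genes with an unadjusted p under 0.05 were looked up, each gene centred on its own mean. For Akt1 they were Psme3ip1, Adprh and Swap70, with mean absolute differences of 0.04 to 0.05 on the log2 scale. The median over 9098 candidates was 0.47. For Pik3r1 they were Atf7ip, Pno1 and Nup54 (0.03 to 0.04, median over candidates 0.46). For Pik3r5 they were Psap, Prdm9 and Slfn8 (0.13 to 0.15, median over candidates 0.78). The likeness rests on 6 arrays in 2 groups and is a description.

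The rest of the pathway was described from 9 lists of 103 genes, of which 82 were bright enough to be tested. None passed an adjusted p of 0.05. At an unadjusted p under 0.05, 3 (Pik3r2, Phlpp2 and Eif4e) were lower and 2 (Pik3c2g and Tbc1d1) higher, and the median log2 fold change was -0.14. These shares are under the 12.5% and 10.8% of all tested targets. For higher genes the comparison turned in the value table, where 27 of the 82 were higher, against 16.3% of all targets. For lower genes it did not turn there. The median was 0.16 in that table and -0.47 with scaling to the array median, and it ranged from -0.23 to -0.03 when each array was left out. The genes named from each list are those with its smallest p-values, so that groups without overlap follow in part from the choice. Over all tested targets, the SA-H arrays lay entirely below for 20.7% and entirely above for 11.9%. Among the other class I subunits, only Pik3r2, the beta isoform of the regulatory subunit, had an unadjusted p under 0.05. Its levels were -1.35, -1.41 and -0.93 in the MOD group and -3.11, -1.93 and -1.83 in the SA-H group. It lay below the MOD range on all SA-H arrays, but its spot on SA-H array 4 was not well above background (log2 fold change -1.06, standard error 0.39, limma adjusted p = 0.172), and without that array the difference was -0.65. Pik3r3 (0.27) and Pik3r6 (0.48), the other adaptor of the gamma enzyme, had overlapping groups, and without SA-H array 4 they were at 0.056 and 0.19.

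Of the class II and III enzymes, Pik3c2g, a class II lipid kinase, had the clearest difference. Its levels were -1.61, -1.81 and -1.62 in the MOD group and -0.24, -0.41 and -0.87 in the SA-H group, without overlap (log2 fold change 1.18, standard error 0.25, limma adjusted p = 0.0888). Pik3c2b was well above background on 1 of 3 MOD arrays, passed the filter through the SA-H arrays alone and had overlapping groups. Pik3c3, the class III kinase of autophagy, was at -0.59 (0.05 without SA-H array 4), and Pik3r4 at 0.04.

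Upstream of PI3 kinase, 0 of 20 tested receptors and adaptors had an unadjusted p under 0.05, and 15 of the 20 had a negative log2 fold change (median -0.35, and -0.07 without SA-H array 4), beside 52.3% of all tested targets. The median was 0.15 in the value table. The T cell costimulator Cd28 was at -0.52, the insulin receptor substrate Irs2 at -0.41, and the ubiquitin ligases Cbl and Cblb at -1.65 (-0.73 without SA-H array 4) and -0.47. Of the kinases that activate Akt and the other subunits of their complexes, 0 of 7 tested genes had an unadjusted p under 0.05. Pdpk1, which phosphorylates Akt in its activation loop, was at -0.55 (adjusted p = 0.278), Mlst8 at -0.51, Prr5 at -0.27 and Mtor at -0.23 (-0.13 without SA-H array 4).

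Of 10 phosphatases and other brakes, Phlpp2, a phosphatase that removes an activating phosphate from Akt, had the smallest p. Its levels were 1.04, 0.82 and 1.04 in the MOD group and -0.03, -0.09 and 0.15 in the SA-H group. Each group was tight and they did not overlap (log2 fold change -0.95, standard error 0.22, limma adjusted p = 0.0912). The protein phosphatase subunits Ppp2r2a, Ppp2ca and Ppp2r1a were at 0.83, -0.70 and -0.81, and without SA-H array 4 at 0.40, -0.34 and -0.22.

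Of 8 tested Akt substrates, Tbc1d1, a Rab GTPase-activating protein of glucose transport, had levels of 0.03, 0.21 and 0.56 in the MOD group and 1.63, 0.80 and 1.1 in the SA-H group. The groups did not overlap (log2 fold change 0.91, standard error 0.30, limma adjusted p = 0.147). Foxo1, the transcription factor that Akt keeps out of the nucleus, was at 0.54 (standard error 0.23, adjusted p = 0.215), with all SA-H arrays above all MOD arrays. Mdm2 was at 0.55 (0.23 without SA-H array 4) and Bad at -0.23 (-0.34 without it). Of 8 tested FoxO target genes 0 had an unadjusted p under 0.05 (S1pr1 -0.71, Sesn3 -0.78, Bcl6 -0.35, Sesn1 -0.16). Without SA-H array 4, S1pr1 and Sesn3 were both at -0.41 and Sesn1 at -0.09, and all of these 4 genes were above 0 in the value table (0.45, 0.39, 0.065 and 0.18).

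In the mTORC1 branch, Eif4e, the cap-binding translation factor, had levels of 2.60, 2.36 and 2.54 in the MOD group and 1.37, 1.20 and 1.55 in the SA-H group. The groups were far apart relative to their spread (log2 fold change -1.12, standard error 0.23, limma adjusted p = 0.0822), and in the value table Eif4e was at -0.41. Its inhibitors Eif4ebp1 and Eif4ebp2 were at -0.41 and -0.46, and the GTPase Rheb, which activates mTORC1, at -0.61. Of 12 tested effectors that bind PIP3 or act downstream of it, 0 had an unadjusted p under 0.05 (Sgk1 -0.85, Cyth1 -0.69, Prex1 0.47, Btk 0.50). Without SA-H array 4, Sgk1 was at -0.39, Cyth1 at -0.23 and Prex1 at 0.20, and in the value table Sgk1 (0.60) and Cyth1 (0.62) lay on the other side of 0.

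**Figure D4:**
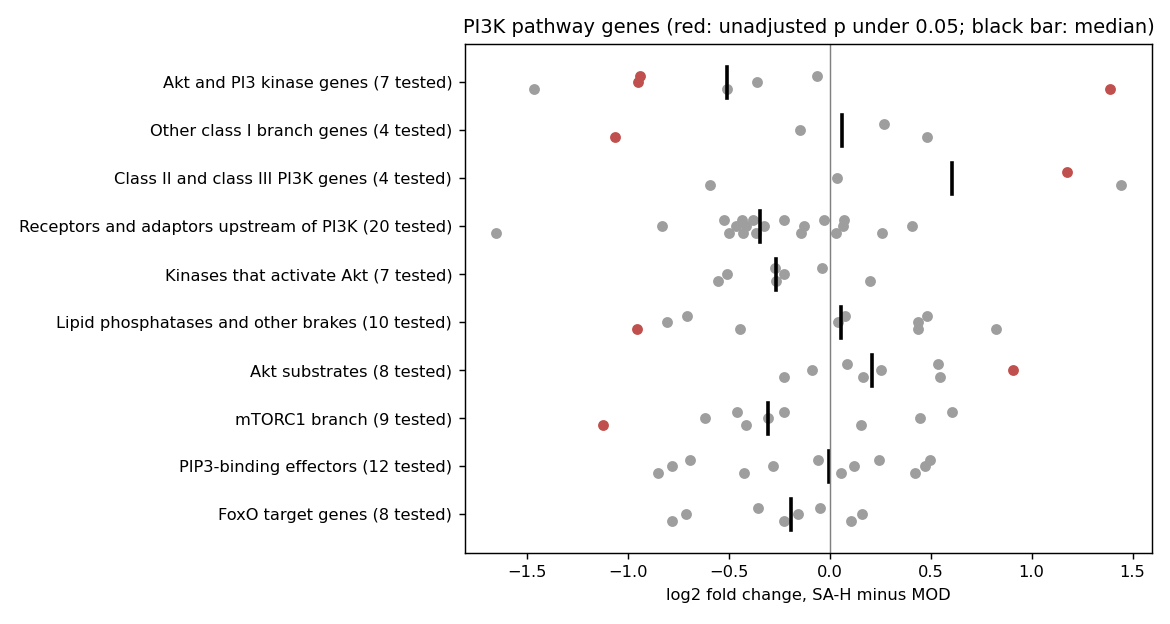
Log2 fold change (SA-H minus MOD) of each tested gene of the 8 Akt and PI3 kinase genes and of the 9 pathway lists, with red for an unadjusted limma p under 0.05 and a black bar at each list's median. Only 5 of the 82 pathway genes are red. The medians of the 9 pathway lists lie between -0.35 and 0.61, and that of the Akt and PI3 kinase genes is -0.51.

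Markers of the cells a spleen sample can hold, mitosis genes and ribosomal protein genes were read in the same fit. None of them passed an adjusted p of 0.05. Counts of lower or higher genes here are at an unadjusted p under 0.05, beside 12.5% lower and 10.8% higher over all tested targets. Of 12 macrophage markers 10 were tested, with 1 lower and 1 higher by unadjusted p, and the median log2 fold change was -0.55 (-0.20 without SA-H array 4). Their summed signal, in multiples of the 75th percentile, was 107 to 137 on the MOD arrays and 76.6 to 131 on the SA-H arrays. Of 12 mitosis genes 7 were lower (median -0.99, summed signal 69.2 to 79.1 against 34.1 to 62.5), while 2 had a log2 fold change above 0, among them Aurkb at 2.24. Of 6 tested fat markers 5 were lower (median -2.42, summed signal 8.88 to 13.4 against 4.34 to 5.71). Only 1 of these fat markers was bright on every array. The others passed the brightness filter through a single group, so that the count and median of fat markers depend in part on the filter. The fat marker median was -1.49 without SA-H array 4 and -1.27 with normexp. B cell markers (11 tested, 0 lower and 2 higher, median -0.11, summed signal 141 to 180 against 163 to 193) and T cell markers (11 tested, 0 lower and 0 higher, median 0.07, summed signal 26.8 to 53.2 against 25.6 to 35.8) had overlapping sums. So did neutrophil markers (10 tested, 1 lower and 1 higher, median 0.05, summed signal 271 to 364 against 275 to 851), erythroid markers (12 tested, 3 lower, median -0.60, summed signal 455 to 528 against 381 to 984) and ribosomal protein genes (12 tested, 1 higher, median 0.46, summed signal 789 to 950 against 893 to 2060). In bulk tissue, fewer cells of a type and less RNA per cell cannot be told apart. Leaving out SA-H array 4 gave medians of -0.25 for neutrophil, 0.24 for ribosomal and 0.10 for B cell genes. Leaving out SA-H array 5 gave 0.24 for neutrophil, 0.73 for ribosomal and -0.29 for erythroid genes. The ribosomal median was -0.018 with quantile normalization, and the value table gave -1.12 for neutrophil and -2.46 for erythroid genes. In the value table the B and T cell medians were 0.45 and 0.74. The part of these markers in the values of the Akt and PI3 kinase genes was not tested.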

How the data were processed

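Spleen RNA was measured on 6 1-colour arrays, 3 of the MOD group and 3 of the SA-H group. Spot intensity was extracted by the authors (Agilent Feature Extraction 11.0.1.1) with background subtraction per the file headers, and it was not normalized between arrays. The authors also deposited log2 values in a table, whose normalization is not given in the sources used here; all columns have a median of 5.34.

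From each log2 signal, the array's 75th percentile over 43020 non-control spots was subtracted. Spots flagged as outliers were left out, and a probe needed a value on all 6 arrays and, in at least 1 group, 3 spots well above background. The brightest kept probe (of 16900) stood for its gene. This left 14474 targets, 11005 of them with a symbol. SA-H was set against MOD by limma 3.58.1 under R 4.3.3 (lmFit and eBayes, Benjamini-Hochberg adjustment over all targets, threshold 0.05), with no covariate. Precision is limited by the small number of arrays. The fit was tested on simulated data.

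The text names all 8 genes with their probes, up to 4 genes with the smallest p per pathway list, Foxo1, and 3 genes most alike each member with an unadjusted p under 0.05. A few genes it selects are left unreported here. The members and gene lists were chosen with earlier results of these data known. Alternatives were other scalings, normexp (offset 50, on the median signal, since no mean signal was used here), the value table, other brightness filters, the scan day or slide scan as a block, other probes, an analysis of variance as in the study's methods, and leaving out each array. Other steps used Python 3.11.15, numpy 2.4.6, pandas 2.3.3 and matplotlib 3.10.9. Promoters were read from a RefSeq table (GRCm38.p6), in which all 8 genes were found. The array's own annotation refers to another build, so the only coordinates given are those of the promoter windows in that table.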

Additional observations from a re-analysis of the deposited data

How the results depend on the processing

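Pik3r5, Akt1, Pik3r1, Pik3cb and Pik3cg kept their direction in every alternative that gave them a value, but many alternatives could not have turned it. The groups of these genes do not overlap, so leaving out an array, comparing within days or blocking by day keeps the sign. The brightness filters, other probes, kept outlier spots and the analysis of variance repeat their main log2 fold change. Akt2 was reversed in the value table (0.24), with the scan day as a block (0.14) and with slide scan as random block (0.075), and ranged from -0.24 to 0.13 when each array was left out. It moved to 0.55 within the second scan day. Pik3ca was reversed with normexp (0.039) and in the value table (0.35), and ranged from -0.80 to 0.045 when each array was left out. Within the second scan day Pik3ca was at -1.59, Pik3cb at -0.58 and Pik3cg at -3.61. Pik3cg passed the threshold with scaling to the array median (-1.78, adjusted p = 0.0161, resting on a spot on SA-H array 4 that was not well above background), Pik3r1 in the value table (-0.87), and Pik3r5 in the value table (0.67) and with the day as a block (1.45). Over all alternatives with a test, the adjusted p was 0.0195 to 0.447 for Pik3r5, 0.0332 to 0.469 for Pik3r1, 0.0563 to 0.495 for Akt1 and 0.0161 to 0.639 for Pik3cg. Leaving out each array gave -1.07 to -0.73 for Akt1, -0.42 to -0.25 for Pik3cb, -2.07 to -0.36 for Pik3cg, -1.09 to -0.80 for Pik3r1 and 1.24 to 1.54 for Pik3r5. Scaling to the array median moved the median of all targets from -0.04 to -0.36, and relative to it Pik3cg was at -1.42, Akt1 at -0.90, Pik3r1 at -0.91, Pik3r5 at 1.43, Pik3cb at -0.32, Pik3ca at -0.47 and Akt2 at -0.02. Relative to the median of the main setting these values are the same, because scaling shifts all genes of an array alike.

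The count of targets past an adjusted p of 0.05 was 0 in the main setting, 4 with quantile normalization, 1094 with median scaling, 210 with normexp, 1779 in the value table, 1 among probes well above background on all 6 arrays, 1075 with the day as a block and 0 to 22 when each array was left out. It was 22 without SA-H array 4, 2 without SA-H array 5 and 1 without MOD array 2. At an unadjusted p under 0.05, leaving out arrays gave 823 to 2091 lower targets and 906 to 1824 higher ones, both lowest without MOD array 1 (1151 lower without MOD array 3). The number of higher targets was 1561 in the main setting, 1006 with median scaling (against 2239 lower), 1912 with the percentile of detected probes (against 1427 lower), 2358 in the value table and 2523 with the day as a block. Among the pathway genes, the number lower was 12 with median scaling, 7 with normexp, 8 in the value table, 5 with no brightness filter, 7 with the day as a block, 7 with the slide as a random block, 6 with the analysis of variance and 2 to 5 when each array was left out (5 without SA-H array 4 or 5). The number higher was 4 with quantile normalization, 1 with median scaling, 4 with the percentile of detected probes, 27 in the value table, 7 with the day as a block, 5 with the slide as a random block, 4 with the analysis of variance and 1 to 5 when each array was left out (5 without SA-H array 4, 4 without SA-H array 5, 1 without MOD array 1). The cause was not tested. Of the list medians under alternatives, 63 moved by more and 357 by less than the spread between arrays. Where a group was left with 2 arrays, the fit pools the spread over both groups. The analysis with outlier spots kept was added after seeing the data. No paired analysis was possible because the groups share no replicate numbers. Signal over background limits the genes that were dim on SA-H array 4.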
